A study of Solanum lycopersicum with 32 samples.

Results

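In tomato leaves held under heat stress (HS) for 6 h, 1182 regions of the genome carried peaks of RNA polymerase II (RNAPII) that were listed at no earlier time. These regions at 6 h alone were chosen from the RNAPII peak lists. The peaks of all 6 RNAPII libraries on chromosomes 1 to 12 were merged into 79569 regions of at least 150 bp. A region was kept if a peak of both 6 h libraries overlapped it and no peak of the 4 libraries at 0 h and 1 h did, which applied to 1.49% of all RNAPII regions. RNAPII values at these regions are therefore given as a description, without a test.

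The samples were leaves of wild-type tomato (*Solanum lycopersicum*) cv. M82, a processing cultivar. Plants of 4 weeks, raised at 24 °C under 16 h of light, spent 0, 1 or 6 h at 45 °C before sampling. Peaks from chromatin immunoprecipitation and sequencing (ChIP-seq) were analysed for RNAPII and 4 histone marks (H3K4me3, H3K9ac, H3K18ac and H3K27ac), with 2 libraries per target and time, 30 in all. No unheated sample accompanied the 1 h and 6 h samples, so heat and time of day cannot be told apart, and the only input library, labelled 0 h, served as the background of every list. Whole leaves mix cell types, so a change in the share of cells that carry a peak cannot be told apart from a change within cells.

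RNAPII transcribes protein-coding genes, and its peaks mark places where it is engaged or paused. H3K4me3 is placed around the start of transcribed genes. H3K9ac, H3K18ac and H3K27ac are acetylations laid down by histone acetyltransferases at active promoters and, in many organisms, at enhancers. In tomato, genes are concentrated towards the chromosome arms, and the wide pericentromeric parts are rich in repeats and poor in active marks.

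The lists held 71335 to 75132 RNAPII peaks per library and 40601 to 126475 histone mark peaks per library. The number of sequenced fragments behind a peak was recovered from its deposited fold enrichment and p-value, and depth was read from the lowest background that a library gave, counted in fragments at a base. For RNAPII this depth was 9.53 and 7.98 at 0 h, 7.33 and 7.05 after 1 h, and 6.94 and 5.61 at 6 h, so the libraries that listed these regions were the shallowest. The fewest fragments of any listed RNAPII peak were 16 and 14 at 0 h, 13 and 13 after 1 h, and 12 and 10 at 6 h. The lists do not give fragments where no peak was called, and absence means only that no peak was listed. Paired libraries of a group agreed within sampling noise in the 11 pairs that could be compared, with 0.295 to 0.705 chi-square per matched peak, against 1.04 to 10.7 for 46 pairs of different times. The study's methods describe the libraries of a time as independent biological replicates, but each pair was counted here as 1 sample, and so were the 4 pairs that could not be compared. Values of both libraries stand side by side, no SD is given, and spread between plants was not measured.

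The RNAPII peaks at the regions at 6 h alone were weak, as were those of regions listed at 1 of the other times alone. Their fold enrichment over background, a ratio, had a median of 2.12 in replicate 1 (1.41 to 7.56) and 2.15 in replicate 2 (1.43 to 6.50). The median region had 24 fragments in replicate 1 (14 to 103) and 20 in replicate 2 (11 to 75), over backgrounds of 10.7 and 8.54 fragments. Ranked within its own list, the median peak stood at percentile 21.2 and 19.6. Regions with RNAPII at all 3 times stood at percentile 70.9 and 70.6 of the same lists, with median folds of 5.46 and 5.48. Regions with RNAPII at 0 h alone stood at percentile 22.1 and 21.1 of the 0 h lists, with median folds of 2.01 and 2.05. Those at 1 h alone stood at percentile 28.0 and 28.1 of the 1 h lists, with median folds of 2.33 and 2.34. The q-value was above 0.05 at 198 regions (16.8%) in replicate 1 and 239 (20.2%) in replicate 2, and at most 0.05 in both libraries at 821 of the 1182. It was above 0.05 at 6.74% and 7.61% of the regions at 1 h alone, and at 13.8% and 15.1% of those at 0 h alone.

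Regions that RNAPII marked at one time were narrow. The regions at 6 h alone had a median width of 486.5 bp (209 to 4800), against 496 bp for the 7002 regions at 1 h alone, 432 bp for the 2038 regions at 0 h alone and 1828 bp for the 32913 regions at all 3 times. All RNAPII regions had a median width of 689 bp. A wider region can meet more peaks where 1 bp of overlap counts, and shares set against all RNAPII regions were not matched for width. Together the regions at 6 h alone covered 684 kb. No merged region was under 150 bp, so the width floor removed none. Just outside the rule, 692 regions had both 6 h libraries and exactly 1 of the other 4. Of these, 442 had 1 library at 0 h and 250 had 1 library at 1 h. The 6 h folds of the 692 had medians of 2.15 and 2.27 and their median width was 587 bp. A further 5241 regions, with a median width of 243 bp, were listed by 1 of the 6 h libraries and by no other. With 1 library per group, which eases both the demand for presence and that for absence, replicate 2 gave 5629 regions and replicate 1 gave 5523. All 12 chromosomes held regions at 6 h alone, between 78 on chromosome 5 and 156 on chromosome 1. As a share of the RNAPII regions of a chromosome they ran between 1.29% on chromosome 6 and 1.81% on chromosome 12.

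The regions lay beside other RNAPII at 6 h. The next RNAPII region of any time was a median of 237.5 bp away, and 82.7% had one within 1 kb, against 80.9% of all RNAPII regions. RNAPII peaks stood in the 1 kb flanks of 43.5% and 41.5% of them at 0 h, 35.6% and 34.9% after 1 h, and 73.0% and 71.1% after 6 h. The shares were 53.0% and 51.7%, 62.1% and 62.0%, and 49.6% and 48.0% at the same times for all RNAPII regions. The nearest region with both 0 h libraries was a median of 1057.5 bp away. At 2 kb from the middle, on either side, RNAPII peaks covered 19.4% and 20.5% of the positions at 0 h, 19.9% and 20.3% after 1 h, and 30.5% and 34.1% after 6 h. Regions at 1 h alone had 1 h peaks in the flanks of 75.5% in each library and regions at 0 h alone had 0 h peaks in those of 68.4% and 67.2%, so neighbours of the same time were a feature of all 3 classes.

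**Figure D1:**
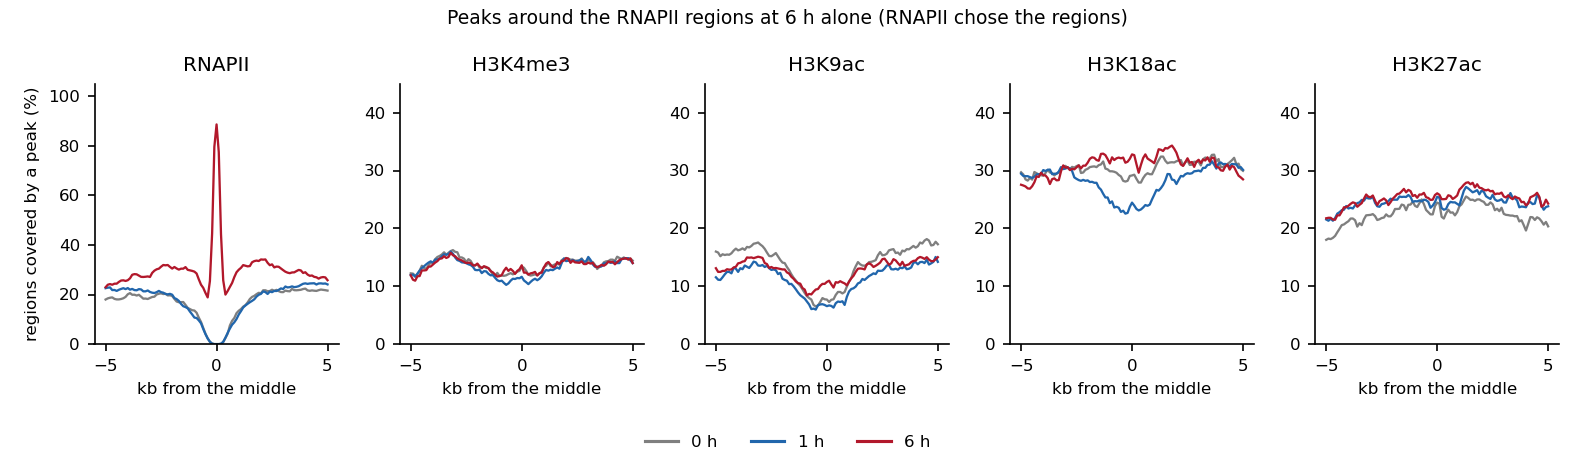
Share of the 1182 RNAPII regions at 6 h alone that a deposited peak covers (y axis, %) at each distance from the middle of the region (x axis, kb), as the mean of 2 libraries, for RNAPII and the 4 histone marks at 0, 1 and 6 h. The RNAPII panel has its own y axis and shows the choice of the regions at its centre, with 0.0% covered at 0 h and 1 h and 88.6% at 6 h. H3K18ac peaks cover 29.1% of the middles at 0 h, 24.5% at 1 h and 32.8% at 6 h.

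Peaks of the histone marks were not used to choose the regions. About 1 in 2 regions at 6 h alone had none of them: 582 (49.2%) overlapped no peak of any of the 4 marks in any of the 24 histone libraries. The share was 14.4% of all RNAPII regions, 13.6% of the regions at 1 h alone, 35.6% of those at 0 h alone and 0.842% of those at all 3 times. It was 52.3% of the 5241 regions listed by 1 library at 6 h, so the share without marks was not particular to regions that both 6 h libraries listed. All RNAPII regions were wider (median 689 bp) and the regions listed by 1 library narrower (median 243 bp), and these shares were not matched for width. The 582 regions without marks and the 600 with at least 1 mark peak had like RNAPII values. Their median folds were 2.11 and 2.14 without marks, and 2.13 and 2.15 with marks, and their median widths were 488 and 485.5 bp. Their RNAPII surroundings at 6 h were also alike. Peaks of 6 h stood in the 1 kb flanks of 72.0% and 71.0% without marks, against 74.0% and 71.2% with marks. RNAPII of 0 h and 1 h around them was unlike. The nearest region with both 0 h RNAPII libraries was a median of 1712.5 bp away without marks and 555 bp away with marks. RNAPII peaks of 1 h stood in the 1 kb flanks of 15.3% and 16.3% of the regions without marks, against 55.3% and 53.0% of those with marks.

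The regions at 6 h alone were found more often in chromosome parts with little H3K4me3. Of 807 bins of 1 Mb, the 403 with the least H3K4me3 at 0 h held the middle of 280 regions (23.7%). The same bins held 8.05% of all RNAPII regions, 6.27% of the regions at 1 h alone, 8.73% of those at 0 h alone, 6.42% of those at all 3 times and 16.1% of those listed by 1 library at 6 h. Among the regions at 6 h alone, the bins held 28.7% of those without marks and 18.8% of those with marks. Their median distance from the nearer chromosome end was 14.3% of the chromosome length, against 9.41% for all RNAPII regions. The central parts of the chromosomes, between 40% and 50% of the length from an end, held 139 regions (11.8%), against 4.68% of all RNAPII regions. These shares were chosen after the data were seen and were not tested. Median RNAPII folds in the poor bins were 2.26 and 2.303.

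**Figure D2:**
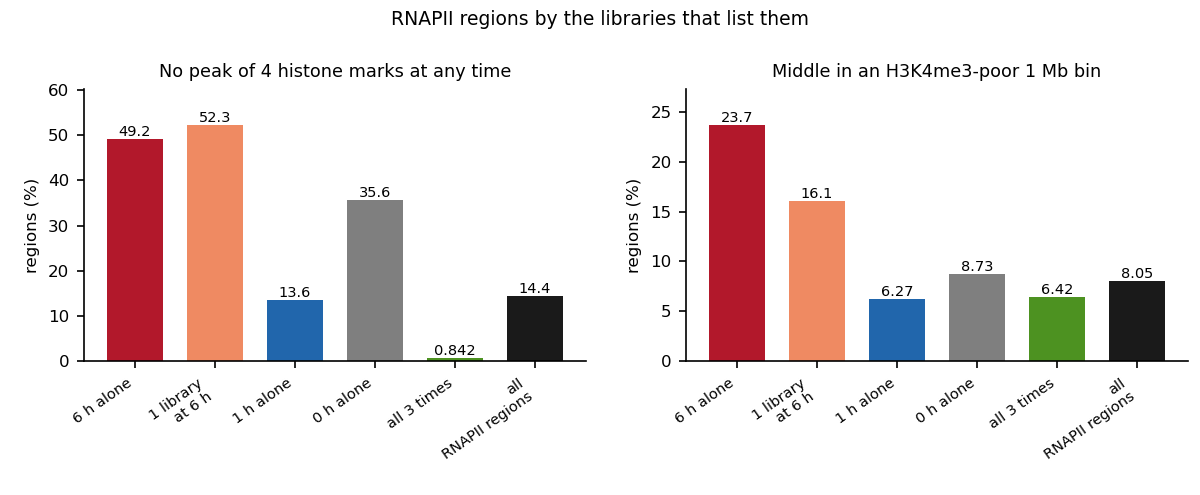
Shares of RNAPII regions (y axes, %, starting at 0) with no peak of any of the 4 histone marks (left) and with their middle in 1 of the 403 H3K4me3-poor bins of 1 Mb (right), by the libraries that list the region (x axis). The bar for 6 h alone stands at 49.2% and 23.7%, and the bar for all RNAPII regions at 14.4% and 8.05%. Regions listed by 1 library at 6 h stand at 52.3% and 16.1%.

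Fewer of the regions at 6 h alone carried histone mark peaks than of the regions at 1 h alone or at all 3 times, and for most marks and times also than of those at 0 h alone. They carried more than the regions listed by 1 library at 6 h, of which 15.9% had H3K4me3, 13.4% H3K9ac, 35.9% H3K18ac and 28.9% H3K27ac at 6 h (means of 2 libraries). The latter were narrower, with a median of 243 bp against 486.5 bp. As 1 bp of overlap counted and widths were not matched, a difference in marking cannot be told apart from one in width. At 6 h, H3K4me3 peaks overlapped 17.4% and 20.8% of the regions at 6 h alone, against 35.4% and 37.7% of all RNAPII regions, which were wider (median 689 bp). H3K9ac peaks overlapped 16.1% and 17.2%, against 49.0% and 49.8%. H3K18ac peaks, the most frequent, overlapped 39.9% and 40.02%, against 76.9% and 76.1%, and H3K27ac peaks 36.7% and 34.1%, against 66.8% and 62.6%. Over the 12 groups of a mark and a time, the mean difference of the regions at 6 h alone from the regions at 1 h alone was −18.3 percentage points, with lower values in 12 of 12 groups (exact two-sided sign-flip test, p = 0.000488, the smallest the test can give, adjusted p = 0.00122 over 5 tests). From the regions at all 3 times it was −56.7 points, with lower values in 12 of 12 groups (exact p = 0.000488, adjusted p = 0.00122). From the regions at 0 h alone it was −8.43 points, with lower values in 8 of 12 groups (exact p = 0.0107, adjusted p = 0.0179). The 4 exceptions were H3K4me3 at all 3 times and H3K9ac at 1 h, at 10.9% for the regions at 6 h alone against 7.92% for those at 0 h alone. The 12 groups of a comparison share their regions, and the 24 histone libraries share the leaves of 3 time points, so these p-values do not measure the spread between plants. Among regions of 150 to 500 bp in every class, where width differs least, the 3 differences, in the same order, were −14.5, −21.7 and −10.2 points. The call against 1 h alone was lost where a peak had to cover 50% of a region (−9.61 points, exact p = 0.0693), and that against 0 h alone with peaks of q of at most 0.01 (−6.44 points, exact p = 0.064).

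At single marks, the regions at 6 h alone had no peak of H3K4me3 in any library at 905 regions (76.6%), against 58.1% of all RNAPII regions. For H3K9ac this held at 917 (77.6%, against 32.9%), for H3K18ac at 650 (55.0%, against 16.3%) and for H3K27ac at 697 (59.0%, against 25.9%). Of the 4 marks, H3K9ac differed most from the RNAPII regions in general, in percentage points. In combination, 678 regions (57.4%, against 22.4% of all RNAPII regions) had no mark in both 6 h libraries. H3K18ac together with H3K27ac, and neither of the others, stood at 193 regions (16.3%, against 16.0% of all RNAPII regions). All 4 marks stood at 111 (9.39%, against 29.5%) and H3K18ac without the others at 72 (6.09%, against 12.9%).

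Mark peaks at the regions became more frequent at 6 h. H3K9ac peaks overlapped 14.2% and 12.9% of the regions at 0 h, 10.7% and 11.2% after 1 h, and 16.1% and 17.2% at 6 h. H3K18ac peaks overlapped 36.0% and 35.6% at 0 h, 32.7% and 31.7% after 1 h, and 39.9% and 40.02% at 6 h. For both acetylations the 3 times did not overlap, with 1 h lowest and 6 h highest. Over all RNAPII regions the 3 times of H3K9ac did not overlap either, with 1 h also lowest but 0 h highest. They stood at 59.1% and 55.6% at 0 h, 42.6% and 43.2% after 1 h, and 49.0% and 49.8% at 6 h. H3K18ac there stood at 78.5% and 78.2%, 79.0% and 78.5%, and 76.9% and 76.1%, lowest at 6 h. At the regions at 6 h alone, H3K27ac peaks overlapped 31.8% and 32.7% at 0 h, 35.2% and 33.0% after 1 h, and 36.7% and 34.1% at 6 h. H3K4me3 peaks overlapped 16.7% and 19.6%, 15.6% and 17.0%, and 17.4% and 20.8%. For these last marks the libraries of 6 h overlapped those of an earlier time, although for H3K4me3 the value at 6 h was the highest within each replicate number.

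Averaged over the 4 marks, the share at 6 h was 3.62 points above the mean of 0 h and 1 h, and higher for 4 of 4 marks, by 1.904 points for H3K4me3, 4.40 for H3K9ac, 5.94 for H3K18ac and 2.22 for H3K27ac. An exact two-sided permutation of the 3 times within each mark, with 81 arrangements, gave p = 0.0247 (adjusted p = 0.0309), where the smallest possible p is 0.0123. Against 0 h alone the difference was 2.83 points and did not pass the test (exact permutation p = 0.134), nor did the difference without replicate 2 (2.44 points, exact permutation p = 0.0988). Relative to all RNAPII regions, measured in the same libraries, the difference was 3.95 points and did not pass the test either (exact permutation p = 0.173, adjusted p = 0.173). In that relative comparison H3K18ac differed by 7.95 points and H3K27ac by 0.13.

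**Figure D3:**
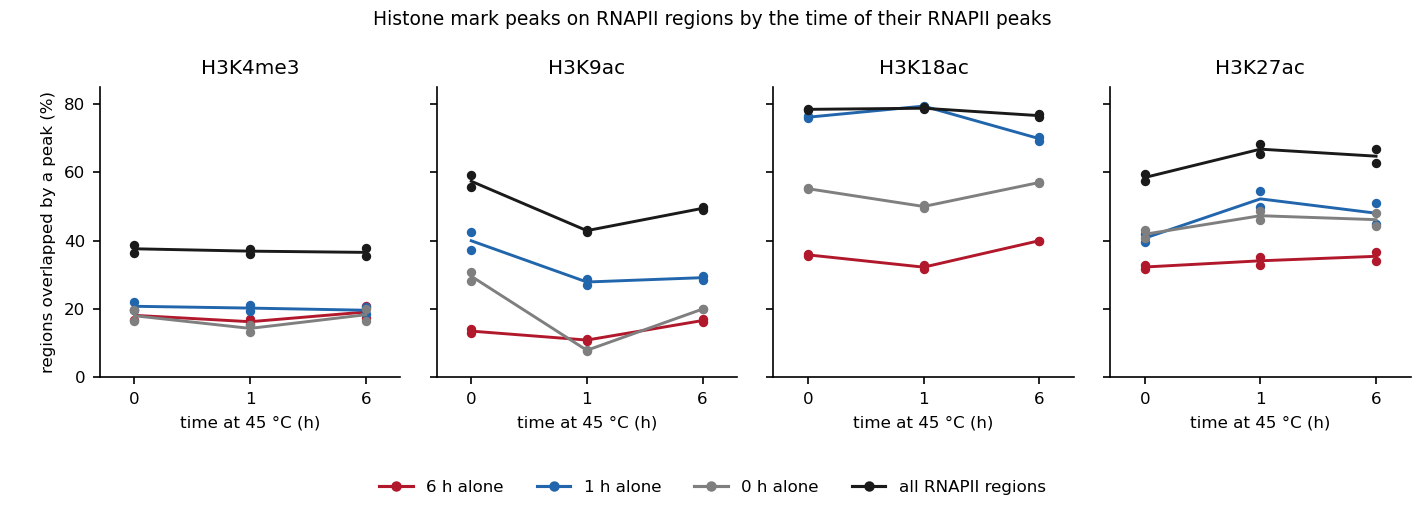
Share of RNAPII regions overlapped by a peak of each histone mark (y axis, %) at 0, 1 and 6 h (x axis), for the 1182 regions at 6 h alone and for the regions at 1 h alone, at 0 h alone and all RNAPII regions. Points are the 2 libraries and lines join their means. For H3K18ac the regions at 6 h alone stand at 32.2% at 1 h and 39.97% at 6 h, below the other classes at every time.

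Gains and losses of single marks between 0 h and 6 h were counted as shares of all regions of a class, whether or not they carried the mark at 0 h. H3K9ac was gained, with both 6 h libraries and neither 0 h library, at 39 regions (3.299%) and lost at 12 (1.02%), whereas of all RNAPII regions 0.983% gained it and 5.28% lost it. H3K18ac was gained at 35 regions (2.96%) and lost at 4 (0.338%), whereas 1.01% of all RNAPII regions gained it and 2.05% lost it. H3K27ac was gained at 23 (1.95%) and lost at 6 (0.508%), against 3.57% and 0.538% of all RNAPII regions. H3K4me3 was gained at 3 (0.254%) and lost at 2 (0.169%), against 0.312% and 0.894%. Gains of H3K9ac and H3K18ac outnumbered losses here and were outnumbered by them over all RNAPII regions. However, a smaller share of the regions here could lose these marks and a larger share could gain them. At 0 h, H3K9ac peaks overlapped 13.5% of them, against 57.4% of all RNAPII regions (means of 2 libraries). For H3K18ac the shares were 35.8% and 78.4%. The counts therefore cannot tell a different course of these marks from a different start. Any of the 4 marks was gained at 92 regions (7.78%), against 5.64% of all RNAPII regions.

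Few regions had a mark that was confined to 6 h in the same way as their RNAPII peak. A mark in both 6 h libraries and in none at 0 h and 1 h was listed at 50 regions (4.23%), against 1.45% of all RNAPII regions. It was H3K9ac at 23 (1.95%, against 0.5%), H3K18ac at 21 (1.78%, against 0.405%), H3K27ac at 7 (0.592%, against 0.382%) and H3K4me3 at 1 (0.0846%, against 0.19%). For H3K18ac the share was nearly as large, at 1.52%, among the regions at 0 h alone, which had no RNAPII peak at 6 h. It was 0.286% among those at 1 h alone. For H3K9ac these shares were 0.343% and 0.600%. Only 2 of the 50 had such a pattern for more than 1 mark. These shares, too, were not corrected for the larger share of the regions at 6 h alone that had no mark at 0 h.

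Where a mark was listed in all 6 of its libraries, the strength of its peak was followed as a rank. Each peak was given the percentile of its fold within its own list. The H3K18ac lists held 107267 and 100888 peaks at 0 h, 92396 and 95313 after 1 h, and 117375 and 120174 after 6 h, and a percentile can move with the length of the list. H3K18ac was listed throughout at 312 regions at 6 h alone (26.4%, against 69.8% of all RNAPII regions). Their median percentile was 72.9 and 72.9 at 0 h, 57.9 and 55.7 after 1 h, and 83.9 and 85.8 at 6 h. Over the 55519 RNAPII regions with H3K18ac throughout, the median was 78.5 and 77.9 at 0 h, 78.0 and 77.9 after 1 h, and 77.6 and 77.3 at 6 h. Thus H3K18ac peaks at the regions ranked below the RNAPII regions in general before HS and at 1 h, with the widest gap at 1 h, and above them at 6 h. On the scale of the authors' fold the medians were 4.42 and 4.42 at 0 h, 3.47 and 3.404 after 1 h, and 4.43 and 4.86 at 6 h, against 4.80 and 4.76, 4.96 and 5.04, and 4.02 and 4.22 over all RNAPII regions with the mark.

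Counted by region, the rank of H3K18ac was above both 0 h libraries in both 6 h libraries at 167 of the 312 regions (53.5%), against 27.4% of all RNAPII regions with the mark. It was below them at 26 (8.33%, against 28.6%). For H3K9ac, listed throughout at 80 regions, the corresponding counts were 58 (72.5%, against 31.9%) and 6 (7.50%, against 33.8%). Their median percentile was 78.1 and 77.2 at 0 h, 71.7 and 72.1 after 1 h, and 82.3 and 83.7 at 6 h. Over all RNAPII regions with H3K9ac throughout, it was 82.7 at 0 h, 77.7 after 1 h and 82.1 at 6 h (means of 2 libraries). The lower H3K9ac rank at 1 h was thus also found over all RNAPII regions. The regions at 6 h alone ranked below that general level at 0 h and 1 h, and near it at 6 h. For H3K4me3, listed throughout at 160 regions, the counts were 60 (37.5%, against 27.2%) and 23 (14.4%, against 19.1%). For H3K27ac, listed throughout at 322 regions, they were 82 (25.5%, against 32.7%) and 80 (24.8%, against 17.7%). H3K27ac was thus the mark with no excess of higher ranks at 6 h over all RNAPII regions. The excess of H3K4me3 was not particular to the regions at 6 h alone. At the 1102 regions at 1 h alone with H3K4me3 throughout, the shares above and below were 36.9% and 10.1%. At the 226 such regions at 0 h alone they were 20.4% and 11.1%. The ranks were examined after the data were seen and were not tested.

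**Figure D4:**
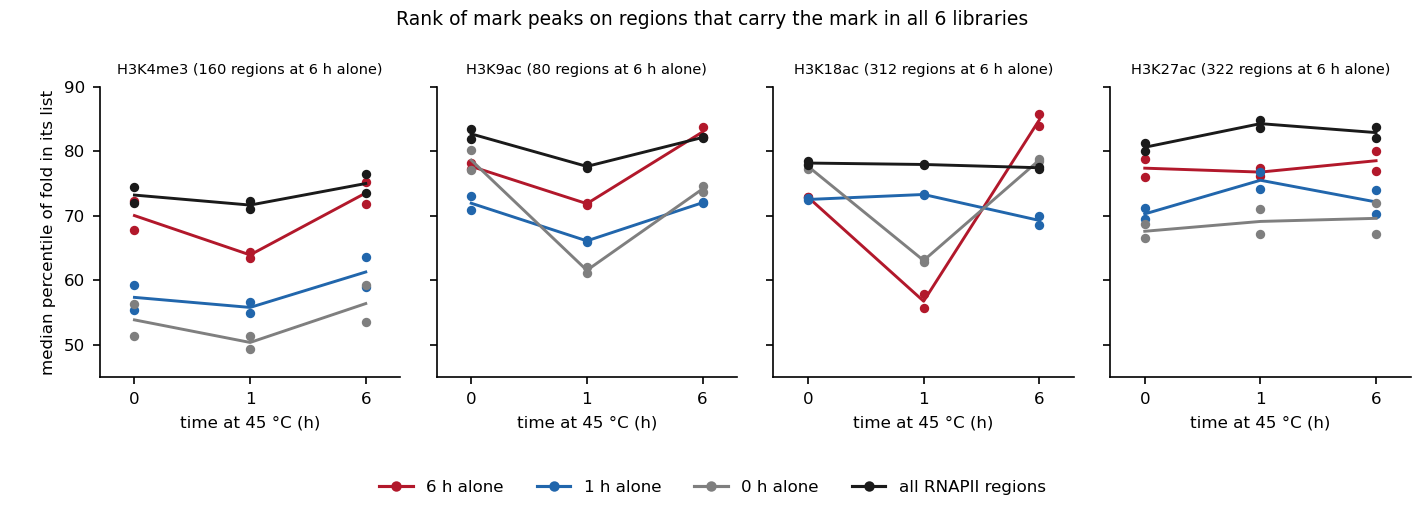
Median percentile of the fold of a mark's peak within its own list (y axis, from 45 to 90) at 0, 1 and 6 h (x axis), over RNAPII regions that carry the mark in all 6 of its libraries, for the regions at 6 h alone, at 1 h alone, at 0 h alone and all RNAPII regions. Points are the 2 libraries and lines join their means. The H3K18ac line of the regions at 6 h alone runs through 72.9, 56.8 and 84.9, whereas that of all RNAPII regions stays between 77.5 and 78.2.

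The regions at 1 h alone did not share the course of H3K18ac. Their median H3K18ac percentile was 72.7 and 72.4 at 0 h, 73.2 and 73.4 after 1 h, and 70.0 and 68.6 at 6 h, over 4342 regions. At the 913 regions at 0 h alone with H3K18ac throughout it was 77.3 and 78.1 at 0 h, 63.4 and 62.8 after 1 h, and 78.5 and 78.8 at 6 h. The lower rank at 1 h was therefore present in both classes without RNAPII at 1 h, while at 6 h the rank stood above 0 h by 11.96 points for the regions at 6 h alone and by 0.975 points for those at 0 h alone. The difference between the classes was not tested. With the libraries of replicate 2 or of replicate 1 alone, which choose several times as many regions, the first value was 6.02 or 6.33 points, and with equal numbers of peaks in every list it was 10.03 points.

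The 10 regions with the highest RNAPII fold, by the lower of their 2 libraries, ranked at percentile 62.3 or above in both 6 h lists, far from the median of the class. Of these, 7 had no histone mark peak at any time, where 49.2% of the regions at 6 h alone and 14.4% of all RNAPII regions had none. A ranking by fold favours a low background. The regions at chr11:9603186-9603484, chr1:58479871-58480252 and chr6:13765023-13765592 stood at the lowest background of both 6 h libraries (6.94 and 5.61 fragments). Of the regions at 6 h alone, 4.65% and 4.40% stood within 1% of that background. The region at chr11:9603186-9603484 (299 bp, assembly M82 version 1) had folds of 5.67 and 5.75 with 44 and 37 fragments. At chr1:58479871-58480252 (382 bp) the folds were 7.56 and 5.44, with 59 and 35 fragments, and at chr2:38507498-38508008 (511 bp) they were 6.83 and 5.44, with 55 and 41 fragments. These 3 lay 1439 bp, 6741 bp and 4545 bp from the next RNAPII region of any time.

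The other 4 without marks were more varied in their surroundings. The region at chr12:32338713-32340417 (1705 bp, folds 5.48 and 5.38) lay 80 bp from a region with RNAPII at 0 h. The region at chr6:13765023-13765592 (570 bp, folds 5.16 and 5.75) stood alone, with 1342380 bp to the next RNAPII region. Those at chr1:60154580-60155158 (folds 4.83 and 6.50) and chr10:49551298-49551701 (folds 4.997 and 4.69) were also isolated, by 37110 bp and 107000 bp. Strong RNAPII peaks at 6 h alone could thus be found far from any other RNAPII region and without a mark peak on them.

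The remaining 3 of the 10 carried all 4 marks at 6 h, and so were the first 3 of the 111 regions with all 4 marks. The region at chr3:32885993-32886445 (453 bp, folds 5.31 and 5.90, 75 and 71 fragments) had every mark in all 24 libraries, 214 bp from a region with RNAPII at 0 h. At chr2:33899328-33900097 (770 bp, folds 4.94 and 5.79, 78 and 75 fragments), H3K4me3, H3K18ac and H3K27ac were listed in every library and H3K9ac in both 6 h libraries alone. At chr2:8857256-8857593 (338 bp, folds 5.35 and 4.50), H3K9ac was listed at 1 h and 6 h and not at 0 h, and the other marks in every library. The next with all 4 marks were chr3:61973878-61974323 (446 bp, folds 6.30 and 4.43, 103 and 61 fragments), with every mark in every library, and chr11:21428508-21429654 (1147 bp, folds 4.09 and 4.41). At 3 of these 5, H3K9ac was the mark that was missing at 0 h, a share that was not counted over all 111.

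Among the 50 regions with a mark at 6 h alone, the highest RNAPII folds were at chr2:33899328-33900097 and chr11:21428508-21429654, both described above and both with H3K9ac at 6 h alone. At the second of these H3K4me3 was listed by 1 library at 0 h, none at 1 h and both at 6 h. At chr9:146662-146974 (313 bp, folds 4.32 and 3.18) H3K18ac was listed at 6 h alone, H3K9ac at 0 h and 6 h, and H3K4me3 and H3K27ac throughout. At chr8:31421030-31421593 (564 bp, folds 3.07 and 3.37) and chr4:38813030-38813361 (332 bp, folds 3.02 and 3.43), H3K9ac was listed at 6 h alone, H3K18ac and H3K27ac throughout, and H3K4me3 in no library. The last lay 44702 bp from the next RNAPII region. In 4 of these 5 regions H3K9ac was the mark at 6 h alone, whereas among all 50 H3K9ac had this pattern at 23 and H3K18ac at 21. H3K27ac was present before HS in all 5. No gene was assigned to any region, as no annotation of this assembly was used here.

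Some of the regions stood in runs. Chaining regions at 6 h alone that lay at most 10 kb apart gave 933 chains, of which 769 held 1 region, 117 held 2 and 47 held 3 or more. In all, 413 regions (34.9%) were in runs of 2 or more, against 52.0% of the more numerous regions at 1 h alone and 38.9% of those at 0 h alone. Of the 47 runs of 3 or more, 24 had no histone mark peak anywhere in their span, 25 had no RNAPII peak of 0 h or 1 h in it, and 16 had neither.

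The longest run, at chr4:58643361-58674699, had 16 regions in 31.3 kb. In that span the 6 h lists held 31 peaks in replicate 1 and 25 in replicate 2, which covered 15735 and 14076 bp. The RNAPII lists of 0 h and 1 h and all 24 histone lists held none. Each peak was weak, with at most 35 and 26 fragments and a highest lower fold of 2.46. Outside the run, the nearest peaks of any library were 0.313 kb away for RNAPII, 3.26 kb for H3K4me3, 3.89 kb for H3K9ac, 4.02 kb for H3K18ac and 3.97 kb for H3K27ac. Within this stretch RNAPII peaks were thus listed at 6 h and no mark was listed, while the rule fixed the absence of RNAPII at 0 h and 1 h for the 16 regions. Beyond its right end stood peaks of all 4 marks and of RNAPII at 0 h and 1 h.

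**Figure D5:**
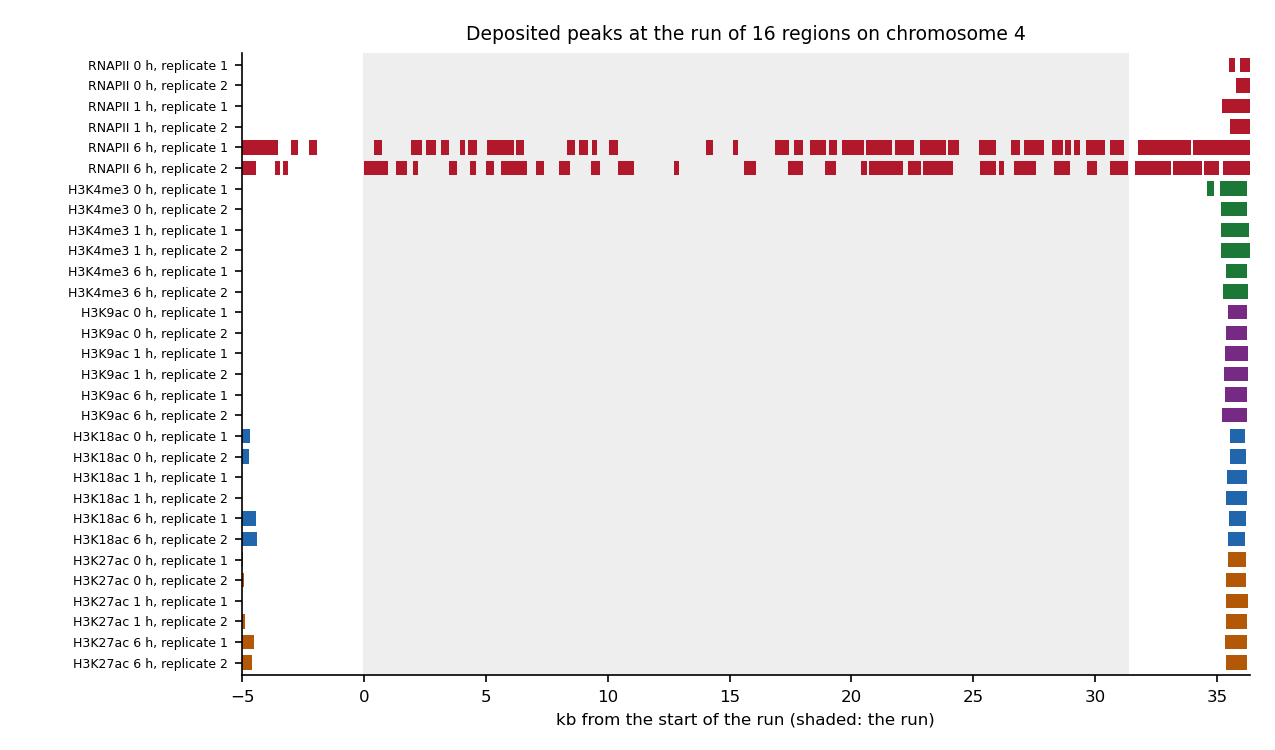
Deposited peaks (bars) of the 30 libraries at the run of 16 RNAPII regions on chromosome 4, against the distance from its start (x axis, kb), with the run shaded and 5 kb on each side. Rows are libraries, by target, time and replicate. Within the run only the rows of RNAPII at 6 h hold peaks, 31 and 25, and all 4 marks have peaks beyond its right end at every time.

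The next longest runs differed from it. The run of 7 regions at chr2:52592878-52612269 spanned 19.4 kb, with 3909 and 4428 bp of RNAPII at 0 h, 863 and 790 bp after 1 h, and 13689 and 12878 bp after 6 h, and held H3K27ac over 5821 bp at 0 h, 1535.5 bp at 1 h and 3322 bp at 6 h (means of 2 libraries). The run of 7 regions at chr9:28981913-28998112 spanned 16.2 kb within an H3K4me3-poor part of the chromosome, with 524 and 434 bp of RNAPII at 0 h, 787 and 914 bp after 1 h, and 6038 and 5118 bp after 6 h. H3K9ac covered 1114 bp of it at 0 h, 1201 bp at 1 h and 2035.5 bp at 6 h. All 4 marks were present in this run at every time, unlike in the run on chromosome 4.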

How the data were processed

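Per the study's methods and the submitters' processing notes, reads were trimmed with Trimmomatic 0.38, mapped to M82 version 1 with Bowtie2 2.3.5, filtered with SAMtools 1.9 and given peaks with MACS2 2.2.7.1, each library against 1 input library. The deposited lists give each peak a fold enrichment (ratio of summit pileup to background) and its p-value and q-value as −log10. The authors' methods name broad peaks and q of 0.05, but the deposited lists hold narrow peaks that reach p of 0.05. Samples of H3K27me1 and of the input were not analysed here.

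Peaks were merged where they overlapped or touched, and 1 bp of overlap counted. Fragments were recovered by solving fold and p-value for a whole number, within 0.001 of −log10 p and for −log10 p under 280. In 4 histone libraries whole numbers could not be fitted, so 4 pairs of libraries were not compared with sampling noise. Summits up to 30 bp apart with 60 or more fragments between them were matched, in 20 levels of depth. The lists hold no read totals, so depth is relative. Exact binomial 95% intervals were computed over the 1182 regions for the share without marks (46.4% to 52.1%) and that in H3K4me3-poor bins (21.3% to 26.2%). They served only to sort alternatives, with a value outside them taken as moved. As they treat regions as independent, they do not measure the spread between plants.

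Time courses were tested by exact permutation within marks and classes by exact sign flips over 12 groups, with Benjamini-Hochberg adjustment over 5 tests. Scripts in Python 3.11.15 (scipy 1.17.1, numpy 2.4.6, pandas 2.3.3, matplotlib 3.10.9) were tested on simulated data. The regions, lists and tests were chosen with earlier results of these data known. Named were the 10 regions with the highest lower 6 h fold, the 3 largest runs, and the 5 highest with all 4 marks at 6 h and with a mark at 6 h alone.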

Additional observations from a re-analysis of the deposited data

Results flagged for a closer look

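At the regions at 6 h alone, the share with an H3K9ac peak moved in opposite directions at the 2 times of HS relative to 0 h: −2.62 percentage points at 1 h, with both libraries below both 0 h libraries, and 3.09 points at 6 h, with both libraries above them. H3K18ac did the same, with −3.60 points at 1 h and 4.15 points at 6 h. The difference between 1 h and 6 h was not tested for either mark on its own. Over all RNAPII regions, H3K9ac peaks overlapped 57.4% at 0 h, 42.9% at 1 h and 49.4% at 6 h, and H3K18ac peaks 78.4%, 78.7% and 76.5% (means of 2 libraries), so neither mark stood above its 0 h share at 6 h there. At the regions listed by 1 library at 6 h, both marks moved in the same directions as at the regions at 6 h alone. H3K9ac stood there at 12.7%, 10.1% and 13.4%, and H3K18ac at 32.0%, 30.1% and 35.9%. Depth differed as well: the lowest background of the H3K9ac libraries was 7.40 and 7.38 fragments at 0 h, 4.47 and 5.53 after 1 h, and 5.15 and 6.49 at 6 h, and its part in the result was not tested.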

How the results depend on the processing

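The number of regions at 6 h alone was 719 with q of at most 0.01, and 5523 to 5629 with 1 library per group. It stayed within 1.5 times of 1182 under the other 5 alternatives (822 to 1038). The rise of marks at 6 h kept its direction under all 15 alternatives (2.44 to 4.40 points). It did not pass the test against 0 h alone (2.83 points), and without 1 library of each group it was 2.44 to 2.62 points, with exact p = 0.0988 without replicate 2. With the replicate block, in which labels were permuted within a replicate number, it was 3.62 points (exact p = 0.000457). Relative to all RNAPII regions, the value of 3.95 points passed the test with the replicate block (exact p = 0.0396) and with libraries as separate samples (exact p = 0.0215), which both count the libraries of a pair as 2 samples. The replicate numbers were not taken as a pairing: differences between replicates in peak rank correlated between times with r over 0.1 in 3 of 15 pairs of times (0.000107 to 0.209). All 3 were of H3K4me3 (0.150, 0.209 and 0.121), so for this mark alone the numbers may pair the libraries. Against the regions at 1 h alone, the difference was −9.61 points where 50% of a region had to be covered (exact p = 0.0693), and against those at 0 h alone −6.44 points with q of at most 0.01 (exact p = 0.064). The difference from the regions at all 3 times passed the test in all 10 alternatives. Results and alternatives chosen after the data were seen were the following. The share without marks was 45.5% with q of at most 0.01, 57.4% with 50% coverage and 52.7% in a window of 200 bp. The share in H3K4me3-poor bins was 17.5% with either library alone, when the rank of H3K18ac at 6 h minus 0 h was 6.02 to 6.33 points in place of 11.96. The cause of these shifts was not tested. Without the run of 16 regions the 2 shares were 48.5% and 24.0%.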
